A study of Mus musculus with 39 samples.

Results

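The genes described here are 36 listed genes of the nuclear receptor PPAR-alpha, its targets and the oxidation of fatty acids, measured in mice kept under reduced oxygen for 2 hours. They were chosen by gene symbol, and a gene was measured where at least 1 probe set of the array was annotated with that symbol alone. This gave 33 of the 36 genes with 63 probe sets, out of 18193 genes on the array. Carnitine palmitoyltransferase Cpt1b, the uncoupling protein Ucp2 and the acyl-CoA synthetase Acsl1 had no such probe set and have no values.

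The study hybridised total RNA to 39 Affymetrix arrays, 1 per sample, from 3 tissues of B6C3F1 mice: the liver, the spleen and bone marrow. Each tissue had a group titled hypoxia, whose treatment label is reduced oxygen, and a group titled vehicle, whose treatment label is control and for which no substance is named. Liver and spleen had 8 samples per group, and bone marrow had 3 vehicle and 4 hypoxia samples. All groups were taken at 2 hours, and all mice were anesthetised with ketamine and acepromazine before they were killed, so both groups of a tissue share these agents. The oxygen level, sex and age are not given in the sources used here. Marrow came from the right humerus, liver from a part of the left lateral lobe and spleen from a slice of the organ. The labels do not say that the samples of a group came from separate mice, so p-values measure the spread between samples, which may be partly technical.

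PPAR-alpha is a transcription factor that binds fatty acids and, with its partner RXR, switches on genes for taking up and burning them, above all in the fasting liver. Fatty acids are activated to acyl-CoA, carried into mitochondria by the carnitine shuttle and shortened in repeated cycles, while very long chains are shortened first in peroxisomes. Liver turns much of the product into ketone bodies, and surplus fatty acid is stored in lipid droplets. When oxygen is scarce, transcription factors of the HIF family act on genes of fuel choice and lipid droplets as well.

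The arrays report intensity, given here as log2. Tissues appeared to be normalized separately, with array medians of 5.21 to 5.33 in liver, against 6.16 to 6.20 for the spleen arrays and 6.22 to 6.29 for marrow, so levels set across tissues are descriptions. Each gene was read from its brightest probe set in a tissue, and genes in the dimmest 30% were not tested there. All 33 genes were bright enough in liver and 27 each in bone marrow and spleen. Fabp1, Vnn1, Acaa1b, Acot4 and Ppargc1a were too dim in both bone marrow and spleen, Ehhadh in bone marrow and Ppara in spleen. Of the hepatocyte marker list, 9 of 10 genes had a probe set and none was dim in liver, whereas 6 were dim in bone marrow and 3 in spleen. Some spleen samples stood apart in markers of neighbouring tissue. The summed intensity of the pancreatic acinar markers was 66319 in vehicle replicate 5 and 12157 in hypoxia replicate 2 and between 662 and 1669 in the others, and that of the adipocyte markers was 7045 in vehicle replicate 4 and between 511 and 2723 in the others.

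In liver, 10 of the 33 genes changed at an adjusted p under 0.05 (limma, Benjamini-Hochberg over 12735 genes), and 11.1% of all genes tested did so. The lipid droplet protein gene Plin5, the coactivator and phosphatase gene Lpin1 and the fatty acid binding protein gene Fabp4 rose, which is 3 of 33 against 3.88% of all genes. Ppara itself, Slc25a20, Bdh1, Acads, Eci1, Plin2 and Acaa1b fell, which is 7 of 33 against 7.22% of all genes. The median change of the 33 genes was -0.16 on the log2 scale, beside -0.03 for all genes, and 10 of the 33 lay above 0, where 40.6% of all genes did. With each array centred on its median, 6 were called, 3 higher and 3 lower, where 8.23% of all genes were called, 3.27% higher and 4.96% lower. Replicate numbers in liver met the criterion for pairing given with the methods, although only 2 of 8 correlated best with their own partner. The sets of replicates 1 to 4 and 5 to 8 may give such correlations by themselves, which was not tested. With the number as a block 18 of the 33 were called, 6 higher and 12 lower, including all 10. The block also raised the share called among all genes, to 18.7%, with 5.87% higher and 12.9% lower.

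In spleen, 6 of the 27 genes tested rose and 0 fell, where 19.4% of all genes tested changed, 6.83% higher and 12.6% lower. The pyruvate dehydrogenase kinase gene Pdk4 and the peroxisome gene Pex11a rose most, and Lpin1, Acot2, Acadl and Eci2 rose by less. Before adjustment, 7 of the 27 had a p under 0.05, and the share of all genes that did is not given here. The median change was 0.08, beside -0.01 for all genes, and 17 of the 27 lay above 0, where 48.1% of all genes did.

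In bone marrow, Acot2 and Fabp4 rose and 0 of the 27 genes fell, where 7.69% of all genes changed, 2.76% higher and 4.92% lower. The share of 2 in 27 lies near that background. An unadjusted p under 0.05 was reached by 10 genes, and the share of all genes that reached it is not given here. The median change was 0.01, beside -0.01 for all genes, with 16 of 27 above 0 where 47.3% of all genes were. With all 39 arrays in 1 limma fit 0 of the 27 were called. Leaving out vehicle replicate 2, hypoxia replicate 2 or hypoxia replicate 3 also left 0. Leaving out hypoxia replicate 4 gave 1, which was neither Acot2 nor Fabp4, and leaving out vehicle replicate 3 gave 4. The shares of all genes called under these settings are not given here.

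**Figure D1:**
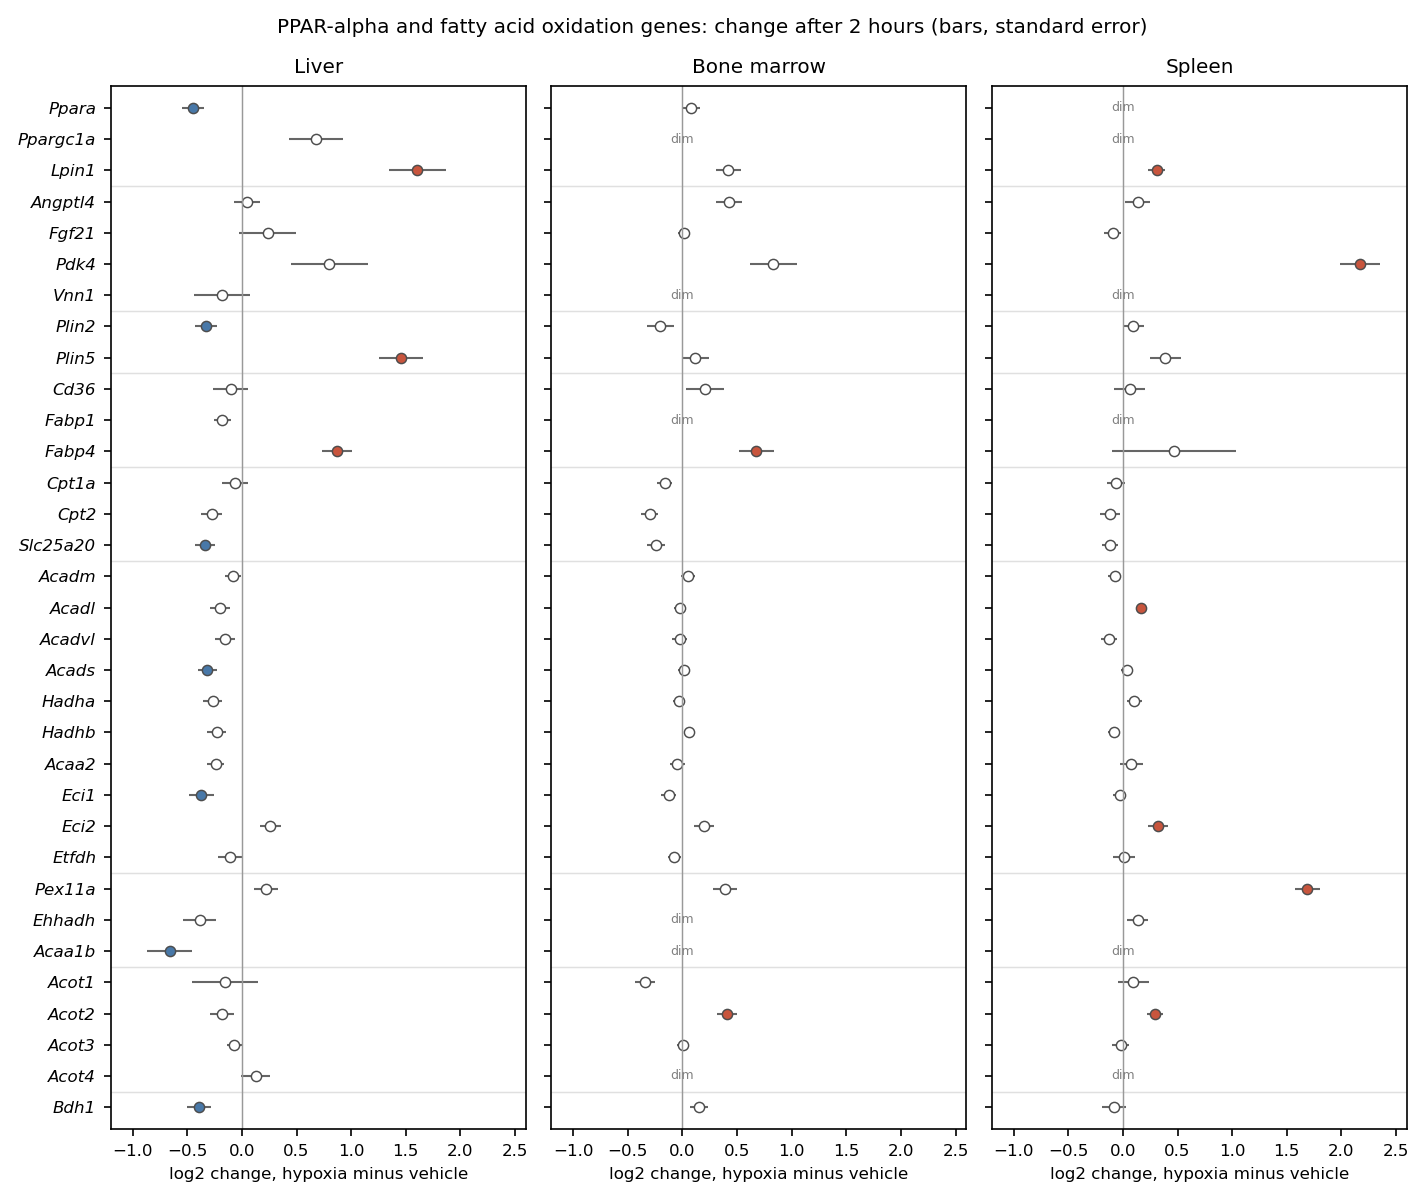
Change of each measured gene, hypoxia minus vehicle, on the log2 axis in liver, bone marrow and spleen, with bars for the standard error and lines between functional groups. Red points were called higher and blue points lower at an adjusted p under 0.05, open points were not called, and "dim" marks a gene not tested in that tissue. In liver 9 of the 10 mitochondrial oxidation genes lie left of 0, and the points farthest right are Lpin1 and Plin5 in liver and Pdk4 and Pex11a in spleen.

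Plin5 and Lpin1 in liver, Pdk4 and Pex11a in spleen and Fabp4 in bone marrow were the genes whose hypoxia samples all lay above the vehicle samples with a called change of 1.5-fold or more. A called rise of that size was seen for 3 of 33 genes in liver, where 1.89% of all genes had one, for 2 of 27 in spleen, where 1.42% did, and for 1 of 27 in marrow, where 0.895% did. For all of these but Fabp4, the 250 bases before the start are given below from RefSeq, build GRCm38.p6, in the direction of transcription, to show which motifs stand before the genes that moved most. Capitals mark matches to the motifs searched, on either strand.
Plin5, chr17:56117549-56117798, minus strand: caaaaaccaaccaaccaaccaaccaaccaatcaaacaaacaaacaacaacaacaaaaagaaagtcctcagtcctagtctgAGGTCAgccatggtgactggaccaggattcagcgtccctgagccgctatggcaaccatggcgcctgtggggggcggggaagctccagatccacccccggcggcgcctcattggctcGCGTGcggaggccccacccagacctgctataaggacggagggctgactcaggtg
Lpin1, chr12:16610967-16611216, minus strand: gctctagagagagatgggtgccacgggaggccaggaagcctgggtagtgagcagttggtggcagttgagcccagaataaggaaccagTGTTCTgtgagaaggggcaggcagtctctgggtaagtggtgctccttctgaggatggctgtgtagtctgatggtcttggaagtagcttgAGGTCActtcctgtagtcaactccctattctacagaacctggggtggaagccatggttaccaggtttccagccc
Pdk4, chr6:5496279-5496528, minus strand: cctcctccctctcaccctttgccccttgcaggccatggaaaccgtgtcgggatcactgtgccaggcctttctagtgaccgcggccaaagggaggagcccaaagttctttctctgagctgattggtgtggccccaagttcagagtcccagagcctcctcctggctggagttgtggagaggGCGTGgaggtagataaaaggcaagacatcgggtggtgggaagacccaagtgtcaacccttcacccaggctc
Pex11a, chr7:79743132-79743381, minus strand: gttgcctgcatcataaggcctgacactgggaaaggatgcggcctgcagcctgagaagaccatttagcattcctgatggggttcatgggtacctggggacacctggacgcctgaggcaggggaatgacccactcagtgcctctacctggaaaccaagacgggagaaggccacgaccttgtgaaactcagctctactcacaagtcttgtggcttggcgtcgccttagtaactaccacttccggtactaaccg
The motifs were AGGTCA, to which single receptors of the PPAR-alpha kind bind; AGGTCANAGGTCA, the spaced repeat on which PPAR-alpha and RXR sit together; ACGTG and GCGTG, cores of HIF sites; AGAACA, a core of glucocorticoid receptor sites; and GTAAACA, a FOXO core. The first of these lies inside the second. Plin5 has AGGTCA 170 bases and GCGTG 54 bases before its start, and a further RefSeq window of Plin5 has GCGTG on the other strand. Lpin1 has AGGTCA 74 bases and, on the other strand, AGAACA 163 bases before its start, Pdk4 has GCGTG 71 bases before it, and Pex11a has none of the motifs in its window. Over all 35 windows found for 31 of the 36 genes, 9 held AGGTCA and 16 held GCGTG, where 14% and 28.2% of 32851 windows of all genes did. ACGTG was in 4 windows against 16.6%, AGAACA in 3 against 16.1%, and GTAAACA and the spaced repeat in 0 against 3.17% and 0.0335%. Only 11 of the 32851 windows held the exact spaced repeat, so its absence from these 35 windows cannot show that the genes lack such sites. A match is a string of letters and not a measured site.

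Ppara fell in liver, a main site of the receptor's action. Its level under vehicle ran from 10.72 to 11.25 with a median of 10.89, and hypoxia livers from 10.22 to 10.97 with a median of 10.45. Only hypoxia replicate 4, at 10.97, lay within the vehicle range, and the other 7 lay below it. The change was -0.45 ± 0.10 (log2 difference and standard error, as for every ± beside a change here), a 1.36-fold fall with an adjusted p of 0.00709 in limma. Both other probe sets fell too, by 0.52 and 0.46. Within replicates 1 to 4 the change was -0.41 and within replicates 5 to 8 it was -0.48, the first of them not called. The labels name no batch, and these sets of replicate numbers are given as possible ones. In whole tissue, fewer cells of a type and less RNA per cell cannot be told apart. The log2 level was 5.76 ± 0.15 (SD, n = 3) in vehicle marrow and 5.17 ± 0.06 (SD, n = 8) in vehicle spleen, and the change in marrow was 0.08 ± 0.09, not called.

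Ppargc1a encodes the coactivator PGC-1alpha, which raises mitochondrial gene expression, and its probe sets in liver gave unlike answers. The brightest ran from 6.17 to 8.19 in vehicle livers with a median of 7.38, and from 7.38 to 8.97 in hypoxia livers with a median of 8.07. The ranges overlap, and the change of 0.68 ± 0.24 was not called (adjusted p = 0.0825), though it was with the replicate block (adjusted p = 0.00523; over 12 other settings 0.00523 to 0.278). It was also called without vehicle replicate 3, at 0.79, or without hypoxia replicate 5, at 0.78. With the mean of its probe sets it was called at 0.70. Of its 4 dimmer probe sets, 2 were called in a fit over all 34945 named probe sets, at 0.91 ± 0.18 and 0.89 ± 0.18, and the other 2 were at 0.59 and 0.41.

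Lpin1, which makes diacylglycerol and also assists PPAR-alpha and PGC-1alpha in the nucleus, rose in liver by more than any other of the genes on its brightest probe set. Vehicle livers ran from 9.54 to 11.67 with a median of 11.22, and hypoxia livers from 12.02 to 13.25 with a median of 12.46. All 8 hypoxia livers lay above all vehicle livers. The change was 1.61 ± 0.26, or 3.05-fold, with an adjusted p of 0.000257, and it was 2.15 within replicates 1 to 4 and 1.06 within replicates 5 to 8. In spleen the vehicle samples ran from 8.53 to 8.82 with a median of 8.64, and the hypoxia samples from 8.69 to 9.21 with a median of 8.96. Of the 8 hypoxia spleens 5 lay above every vehicle spleen, and the change was 0.31 ± 0.07 with an adjusted p of 0.00703, called within replicates 1 to 4 at 0.46 but neither within replicates 5 to 8 at 0.16 nor in the fit of 39 arrays. In bone marrow the vehicle values 8.19, 8.07 and 8.28 all lay below the hypoxia values 8.34, 8.57, 8.63 and 8.87. That change, 0.42 ± 0.12, was not called (adjusted p = 0.0663), while a dimmer probe set gave 0.55 ± 0.09 and was called in the fit over all probe sets (adjusted p = 0.0190).

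**Figure D2:**
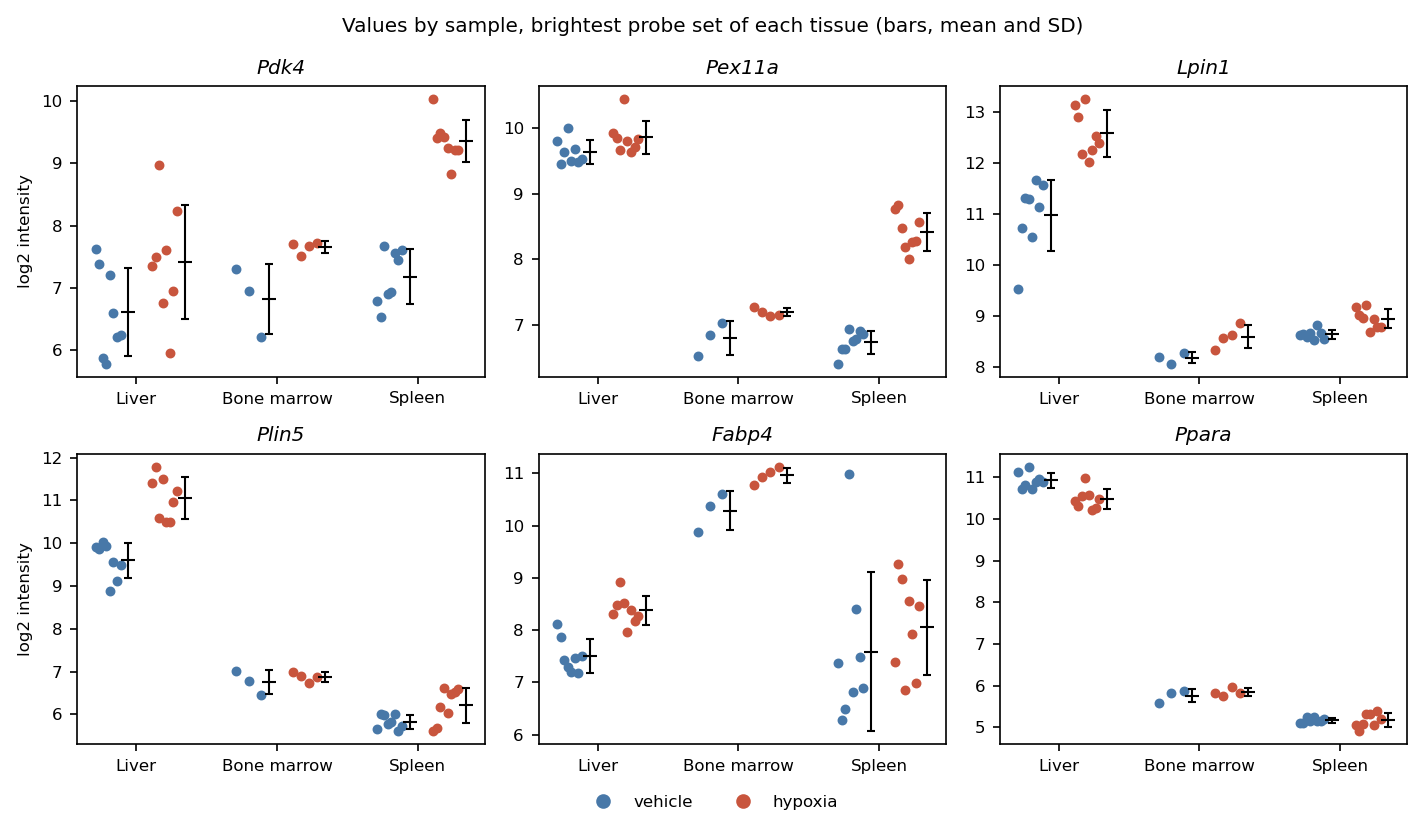
Log2 intensity of Pdk4, Pex11a, Lpin1, Plin5, Fabp4 and Ppara in every sample by tissue, vehicle in blue and hypoxia in red, with the mean and SD of each group beside its points; Ppara in spleen was too dim to be tested. All red points lie above all blue points for Pdk4 and Pex11a in spleen and for Lpin1 and Plin5 in liver, and 1 vehicle spleen has a Fabp4 value of 10.98, far above its group.

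Pdk4 shuts off pyruvate dehydrogenase, so that cells burn fatty acids in place of glucose, and it showed the largest rise of the genes in spleen. Vehicle spleens ran from 6.53 to 7.68 with a median of 7.19, and hypoxia spleens from 8.83 to 10.03 with a median of 9.32. No sample of either group overlapped the other. The change was 2.17 ± 0.18, or 4.50-fold, with an adjusted p of 4.89e-07, and it was called within both sets of replicates, at 2.61 and 1.73. In liver the values were widely spread, from 5.78 to 7.62 under vehicle with a median of 6.42 and from 5.95 to 8.96 under hypoxia with a median of 7.43, and only 2 of 8 hypoxia livers exceeded the vehicle range. The liver change of 0.80 ± 0.35 was not called (adjusted p = 0.163; called at 0.0454 in the fit of 39 arrays; over 12 other settings 0.0454 to 0.344), and its 95% confidence interval runs from 0.06 to 1.54. In bone marrow, vehicle replicates 1, 2 and 3 were at 7.31, 6.95 and 6.21 and the hypoxia replicates at 7.70, 7.51, 7.68 and 7.72. The groups did not overlap, but the change of 0.83 ± 0.22 was not called (adjusted p = 0.0533). It was called without vehicle replicate 1, at 1.08, without vehicle replicate 3, at 0.53, and with the dim filter at the 50th percentile.

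In bone marrow, groups without overlap were frequent: 8 of 27 had all 4 hypoxia samples above the 3 vehicle samples, where 7.77% of all genes did, and 5 had all of them below, where 12.7% of all genes did. The 8 above were Pdk4, Pex11a, Lpin1, Angptl4, Fabp4, Acot2, Bdh1 and Hadhb. The 5 below were Cpt1a, Slc25a20, Cpt2, Acot1 and Etfdh. In liver 2 of 33 lay wholly above and 2 wholly below, against 1.02% and 1.82% of all genes, and in spleen 3 of 27 wholly above and 0 wholly below, against 1.19% and 3.49%.

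Fgf21, a hormone that the fasting liver releases under PPAR-alpha, was not called in any tissue, with 0.24 ± 0.26 in liver, 0.01 ± 0.05 in marrow and -0.09 ± 0.08 in spleen. Its hypoxia livers ran from 6.25 to 8.28 and its vehicle livers from 6.34 to 7.47, so 3 hypoxia livers exceeded the vehicle range and 1 lay below it. The vascular pantetheinase gene Vnn1 changed by -0.18 ± 0.25 in liver, which was not called. Its direction turned between the sets, with -0.77 within replicates 1 to 4 and 0.41 within replicates 5 to 8, neither called.

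Angptl4 encodes a secreted inhibitor of lipoprotein lipase and is a textbook target of PPAR-alpha, and its 2 probe sets disagreed. The bright one ran from 10.87 to 11.12 in vehicle livers with a median of 11.05, and from 10.47 to 11.46 in hypoxia livers with a median of 11.20. Of the hypoxia livers 5 lay above and 2 below the whole vehicle range, and the mean change was 0.05 ± 0.12 (adjusted p = 0.871), with 0.19 within replicates 1 to 4 and -0.10 within replicates 5 to 8. The dim one ran from 2.93 to 3.73 in vehicle livers with a median of 3.34, and from 5.19 to 7.66 in hypoxia livers with a median of 6.71. All 8 hypoxia livers lay far above the vehicle livers, and the change was 3.28 ± 0.31, or 9.74-fold, with an adjusted p of 8.04e-07 in the fit over all named probe sets. That fit called 7.5% of all probe sets in liver and 21 of the genes' 63, with 3.21% of all and 12 of the 63 higher, and 0.807% of all and 9 of the 63 had every hypoxia liver above. With the mean of both probe sets Angptl4 in liver was called, at 1.67. Its vehicle values lie under the level of 4.93 below which genes were left out of the liver test, so this fold rests on a signal near the floor of the array.

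The same pair of readings recurred outside the liver. In bone marrow the dim probe set was at 3.65, 3.51 and 3.49 under vehicle and at 4.30, 4.05, 4.21 and 4.77 under hypoxia, without overlap, a change of 0.78 ± 0.15 (adjusted p = 0.0305). The bright one was at 8.96, 8.79 and 8.42 under vehicle and at 9.12, 9.07, 9.11 and 9.30 under hypoxia, also without overlap. Its change of 0.43 ± 0.12 was not called (adjusted p = 0.0700). It was called without vehicle replicate 1, at 0.54, with quantile normalization, at 0.46, and with the mean of both probe sets, at 0.60. In spleen the dim probe set ran from 3.20 to 3.57 under vehicle with a median of 3.38 and from 3.70 to 4.82 under hypoxia with a median of 4.27. Again no sample overlapped, and the change was 0.85 ± 0.11 (adjusted p = 4.17e-05), beside 0.13 ± 0.11 on the bright probe set (adjusted p = 0.444) and a called 0.49 with their mean. In the fits over all probe sets 3.83% were called in marrow and 5 of the genes' 63, and 6.6% and 15 of the 63 had every hypoxia sample above. In spleen 14.6% were called and 11 of the 63, all 11 higher where 6.02% of all were, and 1.27% and 6 of the 63 had every hypoxia sample above. All of the dim probe set's hypoxia values in marrow and spleen lie under those tissues' limits for dim genes, 5.60 for marrow and 5.38 for spleen.

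**Figure D3:**
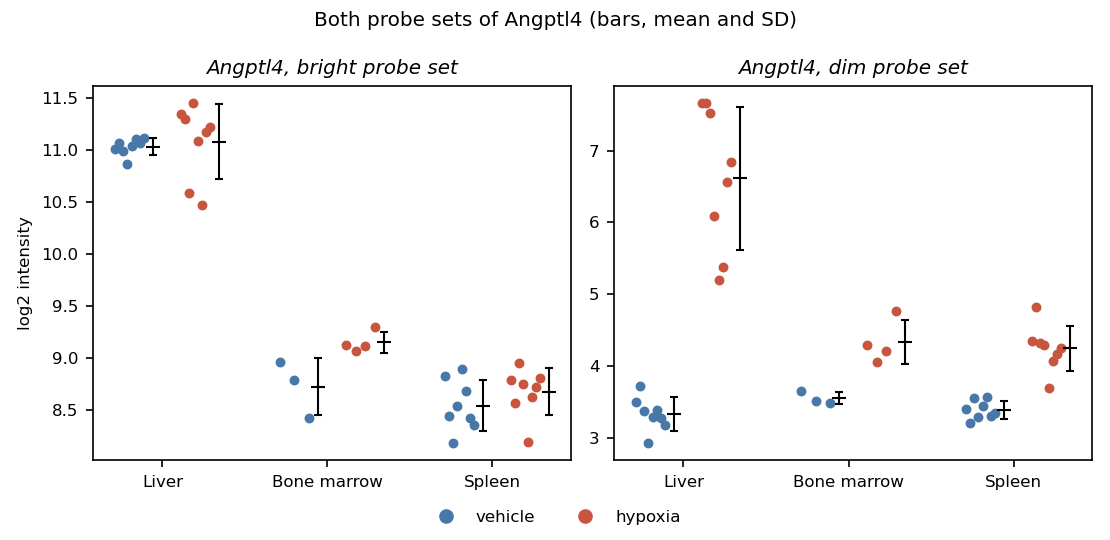
Log2 intensity of both Angptl4 probe sets in every sample by tissue, vehicle in blue and hypoxia in red, with the mean and SD of each group; the vertical scales differ. On the bright probe set the liver groups overlap, while on the dim one every hypoxia sample lies above every vehicle sample of its tissue.

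Plin5 coats lipid droplets that touch mitochondria and governs the release of fatty acids to them. Vehicle values in liver ran from 8.89 to 10.03 with a median of 9.72, and hypoxia livers from 10.49 to 11.79 with a median of 11.09. The groups did not overlap, and the change was 1.46 ± 0.20, or 2.74-fold, with an adjusted p of 5.54e-05. Within replicates 1 to 4 it was 1.38 and within replicates 5 to 8 it was 1.53, both called, and a second probe set gave 1.56 ± 0.14. Marrow changed by 0.12 ± 0.13 and spleen by 0.39 ± 0.14, neither of them called. Within replicates 1 to 4 the spleen change was 0.17, not called, and within replicates 5 to 8 it was 0.61, called (adjusted p = 0.00994). The dimmer probe set of Plin5 was called in spleen in the fit over all probe sets, at 0.25 ± 0.07 (adjusted p = 0.0265).

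Plin2, the main droplet coat protein of hepatocytes, moved the other way in liver. Under vehicle the livers ran from 12.32 to 13.00 with a median of 12.50, and hypoxia livers from 11.94 to 12.49 with a median of 12.21, so 5 of 8 hypoxia livers lay below the vehicle range. The change was -0.33 ± 0.10 with an adjusted p of 0.0391. That call is not firm: it was lost within either set of replicates, with arrays centred on the median, and on leaving out any 1 of vehicle replicates 1 to 5 or hypoxia replicates 1, 3, 6, 7 and 8, when the change lay between -0.34 and -0.26. Marrow and spleen changed by -0.20 ± 0.12 and 0.10 ± 0.09, not called.

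Other droplet genes, from a list of 19 of which 16 were tested in liver, showed 2 higher and 1 lower. Of all genes in liver 3.88% were higher and 7.22% lower. Plin4, a droplet coat protein of fat tissue, rose by 2.10 ± 0.18, from 5.44 ± 0.34 to 7.53 ± 0.48 (SD, n = 8 each; adjusted p = 1.68e-07), and Hilpda, a droplet protein that blocks lipolysis and is induced by HIF, rose by 1.93 ± 0.31 (adjusted p = 0.000305). Lipe, hormone-sensitive lipase, fell by 0.52 (adjusted p = 3.35e-05). No hypoxia liver overlapped the vehicle livers for any of these 3 genes. Hilpda also rose in marrow, by 0.40 ± 0.08 (adjusted p = 0.0236), and in spleen, by 0.63 ± 0.10 (adjusted p = 0.000392), again without overlap. In marrow G0s2, an inhibitor of the lipase ATGL, fell by 0.85 (adjusted p = 0.00210), the only other call among 14 genes tested. Of all genes in marrow 7.69% were called. In spleen 4 of 15 rose and 1 fell, where 6.83% of all genes rose and 12.6% fell. Besides Hilpda the gene of ATGL itself, Pnpla2, rose by 0.52 ± 0.08, Lpin3 by 0.52 ± 0.13 and the triglyceride synthesis gene Dgat2 by 0.54 ± 0.14. The 1 that fell was Plin3, by 0.24, named after its values were seen.

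Fabp4, the fatty acid carrier of adipocytes, macrophages and capillary endothelium, rose in liver and in marrow. In liver it ran from 7.19 to 8.11 under vehicle with a median of 7.44, and under hypoxia from 7.97 to 8.92 with a median of 8.34, and 7 of 8 hypoxia livers lay above the vehicle range. The change was 0.87 ± 0.14, or 1.83-fold, with an adjusted p of 0.000243, and all 4 of its probe sets gave between 0.73 and 0.95. It was 0.88 and 0.86 within the replicate sets, both called. In the 1 fit of all 39 arrays, which shares the spread of the tissues, it was not called (adjusted p = 0.134; over 12 other settings 1.56e-05 to 0.134).

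In bone marrow Fabp4 was at 9.88, 10.38 and 10.60 under vehicle and at 10.78, 10.92, 11.02 and 11.13 under hypoxia, without overlap. The change of 0.68 ± 0.16 had an adjusted p of 0.0376. It was no longer called without vehicle replicate 2, at 0.72, or without hypoxia replicate 2, 3 or 4, at 0.69, 0.66 and 0.62. In spleen it ran from 6.28 to 10.98 under vehicle with a median of 7.13, and from 6.85 to 9.27 under hypoxia with a median of 8.19, which overlap widely. The spleen change was 0.46 ± 0.57, not called, and 0.95 without vehicle replicate 4, still not called. That sample held both the value of 10.98 and the high adipocyte marker sum.

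Markers of cells that make Fabp4 gave the following. In marrow the summed intensity of 9 adipocyte markers was 4440 to 6344 under vehicle and 6161 to 8599 under hypoxia. Of the 5 tested 0 were called, with a median change of 0.01, and Lep, Plin4, Cidec and Adig were dim. Macrophage markers summed to 10937 to 13720 and 12954 to 14717 there, with 1 of 9 tested, Cd163, higher. Marrow endothelial markers summed to 4256 to 5003 under vehicle and 4172 to 5310 under hypoxia, with 0 of 10 called. In liver the adipocyte markers Adipoq, Lep, Cidec and Adig were dim, and of 5 tested Plin4 rose and Lipe fell, as above. Liver macrophage markers summed to 3049 to 5662 under vehicle and 3060 to 7134 under hypoxia with 0 of 10 called, and endothelial markers to 2008 to 2692 and 2187 to 2405 with 1 of 10, Tie1, lower. The part of these cells in the Fabp4 result was not tested.

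The other genes of uptake were not called. Fabp1, the abundant carrier of hepatocytes, changed by -0.18 ± 0.07 in liver. The fatty acid translocase gene Cd36 changed by -0.10 ± 0.16 in liver (-0.28 and 0.07 within the sets), 0.20 ± 0.18 in marrow and 0.06 ± 0.14 in spleen. From the list of 19 further uptake and binding genes, 1 of 14 tested in liver was higher and 2 lower. Of all genes in liver 3.88% were higher and 7.22% lower. Fabp5, another fatty acid carrier, rose by 0.61 ± 0.20 (adjusted p = 0.0494), while the acyl-CoA synthetase and transporter Slc27a2 and Angptl6 fell by 0.26 and 0.32. Of 11 in marrow 0 were called, and of 12 in spleen Got2 rose by 0.16 ± 0.05. Of all genes 7.69% were called in marrow and 19.4% in spleen.

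The carnitine shuttle passes acyl groups into mitochondria. Its inner membrane carrier, Slc25a20, fell in liver. Its vehicle values ran from 10.62 to 11.02 with a median of 10.82, and hypoxia livers from 10.22 to 10.70 with a median of 10.49, of which 4 lay below the vehicle range. The change was -0.34 ± 0.09 with an adjusted p of 0.0182; it was -0.37 within replicates 1 to 4, not called, and -0.30 within replicates 5 to 8, called. Cpt2, which hands the acyl group back to coenzyme A, was at -0.28 ± 0.10 (adjusted p = 0.0731; 0.0198 with the replicate block; over 12 other settings 0.0134 to 0.368). It was also called without hypoxia replicate 2 or 4, at -0.32 in both, and within replicates 5 to 8, at -0.34, but not within replicates 1 to 4, at -0.21. Cpt1a, the rate-limiting entry enzyme, was at -0.06 ± 0.12, with an interval from -0.31 to 0.19. In bone marrow the 3 shuttle genes were all lower in every hypoxia sample than in any vehicle sample, as were 12.7% of all genes there. The changes were -0.16 for Cpt1a, -0.24 for Slc25a20 and -0.30 for Cpt2. None was called, the smallest adjusted p being 0.0542. In spleen the 3 changes were -0.07, -0.12 and -0.12, not called.

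Of the 10 mitochondrial oxidation genes in liver, 2 fell and 0 rose, where 7.22% of all liver genes fell and 3.88% rose. Of the 10, 1 had a change above 0, where 40.6% of all liver genes did. Acads, the short-chain acyl-CoA dehydrogenase, ran from 10.45 to 11.00 in vehicle livers with a median of 10.51, and from 10.06 to 10.44 in hypoxia livers with a median of 10.30. The hypoxia livers all lay below, though the nearest samples of the groups were close, and the change was -0.32 ± 0.09 with an adjusted p of 0.0223. Eci1, which shifts double bonds of unsaturated chains, ran from 11.16 to 11.65 under vehicle with a median of 11.24 and from 10.64 to 11.29 under hypoxia with a median of 10.98, with 5 hypoxia livers below the vehicle range. Its change was -0.37 ± 0.11 with an adjusted p of 0.0358. The Eci1 call was lost without vehicle replicate 1, 2 or 4 or hypoxia replicate 3, 6, 7 or 8, when the change lay between -0.36 and -0.32. With arrays centred on the median neither gene was called.

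The remaining 8 lay between -0.27 and 0.26 and were not called. Acaa2, the last enzyme of the cycle, had all 8 hypoxia livers below the vehicle livers at -0.24 ± 0.08 (adjusted p = 0.0503). The trifunctional protein genes Hadha and Hadhb were at -0.27 ± 0.09 and -0.23 ± 0.09. With the replicate block Acaa2, Hadha and Hadhb were called lower, with adjusted p of 0.0355, 0.0254 and 0.0401, and Eci2, the peroxisomal and mitochondrial isomerase, higher at 0.26 ± 0.10 (adjusted p = 0.0206). Acaa2 was also called without hypoxia replicate 1, 2, 4 or 5 (-0.27 to -0.26), Hadha without hypoxia replicate 1, 2 or 4 (-0.29, -0.28 and -0.31), and Hadhb without hypoxia replicate 4 (-0.28). The acyl-CoA dehydrogenase genes of longer chains, Acadm, Acadl and Acadvl, were at -0.08 ± 0.07, -0.20 ± 0.09 and -0.16 ± 0.09. Etfdh, which passes their electrons to ubiquinone, was at -0.11 ± 0.11 on its bright probe set, while a dim probe set of it, from 3.11 to 3.80 under vehicle and 3.81 to 4.54 under hypoxia, rose by 0.58 ± 0.11.

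The liver sets differed in how many of these genes were called, although 9 of the 10 changes were below 0 in each. Within replicates 1 to 4 the median change of the 10 was -0.15 and 0 were called, and within replicates 5 to 8 it was -0.27 and 6 were called. Of all genes 6.13% were called within replicates 1 to 4 and 14.9% within replicates 5 to 8, so the call rate differed in general. The difference between the sets was not tested. Single hypoxia livers also did not move alike. Acaa2 was at 12.79, 12.62, 12.81 and 12.70 in hypoxia replicates 3, 6, 7 and 8. In hypoxia replicates 1, 2, 4 and 5 it was at 13.07, 13.08, 13.09 and 13.08, and vehicle livers ran from 13.11 to 13.23. For Hadhb the split was less clear, with hypoxia replicate 2 at 11.10 and replicate 3 at 11.16. This split was seen in the values and was not tested. Of the neutrophil markers in these livers 3 of 7 tested, S100a8, S100a9 and Lcn2, rose, while Ltf, Ngp, Mmp9 and Elane were not called. The sum over 10 ran from 370 to 1229 under vehicle and from 419 to 15406 under hypoxia. Lcn2 alone made up 92.4% of the mean sum under hypoxia; without it the sum ran from 265 to 336 under vehicle and from 277 to 1038 under hypoxia. Camp, Mmp8 and Mpo were dim, and the median change of the 7 tested was 0.07. The sum over 10 was above the vehicle range in hypoxia replicates 3, 4, 6, 7 and 8, and the part of these markers in the liver results was not tested. The hepatocyte markers summed to 197080 to 211883 under vehicle and 194699 to 215583 under hypoxia, with 1 of 9, Tat, higher and 0 lower.

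**Figure D4:**
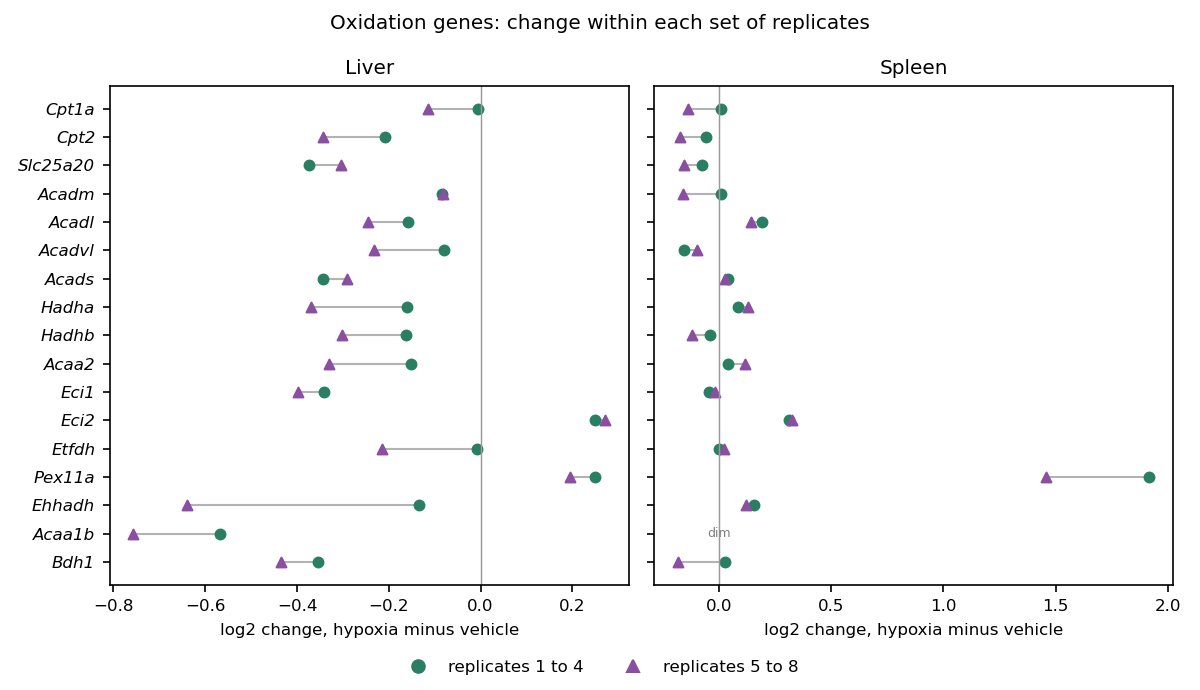
Change of the carnitine shuttle, mitochondrial, peroxisomal and ketone body genes within replicates 1 to 4 (circles) and 5 to 8 (triangles), on the log2 axis, in liver and spleen, whose horizontal scales differ. In liver most pairs lie left of 0 with Eci2 and Pex11a on the right in both sets, and in spleen Pex11a stands at 1.92 and 1.46.

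In spleen 2 of the 10 mitochondrial genes rose and 0 fell, where 6.83% of all genes rose and 12.6% fell. Acadl ran from 10.33 to 10.47 under vehicle with a median of 10.43 and from 10.49 to 10.72 under hypoxia with a median of 10.57, without overlap. Its rise was small, 0.17 ± 0.05 or 1.12-fold, with an adjusted p of 0.0158. It was not called within either set of replicates, with the mean of probe sets (0.10), in the fit of 39 arrays, or without the 3 spleens of unusual marker sums, where it was 0.16. Eci2 ran from 8.86 to 9.27 under vehicle with a median of 9.16 and from 9.10 to 9.84 under hypoxia with a median of 9.44, with 6 hypoxia spleens above the vehicle range. The change was 0.32 ± 0.09 with an adjusted p of 0.0203, not called within replicates 1 to 4 at 0.31 and called within replicates 5 to 8 at 0.33. Without those 3 spleens 5 of the 6 spleen calls held, among them Pdk4 at 2.07 and Pex11a at 1.66. In bone marrow the 10 genes lay between -0.13 and 0.20 and none was called, where 7.69% of all genes were. The smallest adjusted p was 0.241.

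Neutrophil markers in spleen had a median change of 1.03. Of 10 tested, Mmp8 and Mmp9 rose, and the sum ran from 9956 to 31227 under vehicle with a median of 17094 and from 7517 to 74396 under hypoxia with a median of 44358. The T and B cell markers, of which Cd79b of 8 fell, summed to 16950 to 28589 and 7001 to 24021. The part of these cells in the spleen results was not tested.

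Pex11a drives the division of peroxisomes and is a PPAR-alpha target. Vehicle spleens ran from 6.40 to 6.93 with a median of 6.76, and hypoxia spleens from 8.01 to 8.84 with a median of 8.38. The groups lay more than 1 log2 unit apart, and the change was 1.69 ± 0.11, or 3.22-fold, with an adjusted p of 3.64e-08. It was called within both sets of replicates, and a dimmer probe set rose by 1.86 ± 0.13. In liver it was at 0.22 ± 0.11, not called (adjusted p = 0.209; 0.0363 with the replicate block). In bone marrow the vehicle values were 6.52, 6.85 and 7.03 and the hypoxia values 7.27, 7.19, 7.13 and 7.15, without overlap. That change of 0.39 ± 0.11 was not called (adjusted p = 0.0693), while the dimmer probe set was, at 0.80 ± 0.17 (adjusted p = 0.0438).

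The peroxisomal thiolase gene Acaa1b fell in liver. Its vehicle livers ran from 13.15 to 13.65 with a median of 13.30 and hypoxia livers from 11.79 to 13.36 with a median of 12.89, with 5 of 8 below the vehicle range. The change was -0.66 ± 0.20 with an adjusted p of 0.0416. Its hypoxia values were spread with an SD of 0.63 against 0.20 under vehicle. The call was lost within either set of replicates, with arrays centred on the median, with a trended robust prior, and on leaving out any 1 of vehicle replicates 1 to 5 and 8 or hypoxia replicates 3, 6, 7 and 8, when the change lay between -0.68 and -0.53. Its near copy Acaa1a may share signal with it. Ehhadh, the peroxisomal bifunctional enzyme, was at -0.39 ± 0.15 in liver, not called (adjusted p = 0.114; 0.0300 with the replicate block), and was called at -0.47 without hypoxia replicate 1. Within replicates 1 to 4 it was -0.13, not called, and within replicates 5 to 8 it was -0.64, called (adjusted p = 0.0407). In spleen it was at 0.14 ± 0.10.

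The acyl-CoA thioesterases Acot1 to Acot4 release free fatty acids from coenzyme A, and as near-identical neighbouring genes their signals may be mixed. Acot2, the mitochondrial form, rose in marrow, from 8.10, 8.05 and 8.24 under vehicle to 8.33, 8.55, 8.69 and 8.59 under hypoxia, without overlap. The change was 0.41 ± 0.09 with an adjusted p of 0.0323. It was not called with the mean of probe sets (0.30), in the fit of 39 arrays, or without vehicle replicate 1 or 2 (0.39 and 0.37) or hypoxia replicate 2, 3 or 4 (0.41, 0.36 and 0.39). In spleen vehicle samples ran from 8.27 to 8.66 with a median of 8.56 and hypoxia samples from 8.58 to 8.99 with a median of 8.84, of which 6 lay above the vehicle range. That rise was 0.29 ± 0.08 with an adjusted p of 0.0100, and it was 0.37 and 0.22 within the sets, not called in either. In liver Acot2 was at -0.18 ± 0.11, Acot1 at -0.15 ± 0.30 (0.03 and -0.34 within the sets), Acot3 at -0.07 ± 0.07 and Acot4 at 0.13 ± 0.13, none called. Acot1 in marrow had every hypoxia sample below the vehicle samples at -0.34 ± 0.09 (adjusted p = 0.0559), and in spleen it was at 0.10 ± 0.14. Acot3 was at 0.00 ± 0.06 in marrow and -0.02 ± 0.08 in spleen.

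Bdh1, which makes beta-hydroxybutyrate, fell in liver. Its values under vehicle ran from 11.92 to 12.36 with a median of 12.02 and hypoxia livers from 11.24 to 11.97 with a median of 11.69, of which 6 lay below the vehicle range. The change was -0.39 ± 0.11, a 1.31-fold fall, with an adjusted p of 0.0213; it was -0.35 within replicates 1 to 4, not called, and -0.43 within replicates 5 to 8, called. Marrow and spleen were at 0.15 ± 0.08 and -0.08 ± 0.11, not called.

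Further genes of these pathways came from 7 lists of 135 genes, of which 122 had a probe set. In liver 113 were tested, 7 rose and 10 fell, with a median change of -0.08, and of all genes 3.88% rose and 7.22% fell. In marrow 3 rose and 2 fell of 101, where 2.76% and 4.92% of all genes did, and in spleen 11 rose and 6 fell of 103, where 6.83% and 12.6% did. The liver and marrow counts lie near these shares. Among other mitochondrial oxidation enzymes 1 of 28 rose in liver and 4 fell: Mlycd, which removes the brake malonyl-CoA, fell by 0.30 (adjusted p = 0.00509), Acot13 by 0.32 and the acyl-CoA synthetase Acsm5 by 0.48, while Acot9 rose by 0.48 ± 0.13; the fourth that fell, Acad10, by 0.40, is named after its values were seen. Of 20 other PPAR-alpha targets and peroxisomal genes 2 fell in liver, the reductase Decr2 by 0.42 and the fatty aldehyde dehydrogenase Aldh3a2 by 0.74, and 0 rose. Crot, the peroxisomal carnitine acyltransferase, fell in marrow by 0.35 (adjusted p = 0.0348) and in spleen by 0.32 (adjusted p = 0.0130), and Pex16 rose in spleen by 0.28 ± 0.06. Of 24 other mitochondrial enzymes in spleen only Pccb was called, at 0.21 ± 0.06, and of 24 in marrow none.

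Regulators changed in both directions, and the shares of all genes given above for each tissue are the background here too. In liver Ppard, the sister receptor PPAR-delta, rose by 1.28 ± 0.25 (adjusted p = 0.00218) and the fasting factor Foxo1 by 0.83 ± 0.15 (adjusted p = 0.00104), while the coactivator Ncoa3 fell by 0.35, out of 19 tested. Nrip1, a corepressor of oxidation genes, rose in marrow by 0.39 ± 0.07 and in spleen by 0.57 ± 0.06, in both without overlap. In spleen Esrra, Rxrb and the mitochondrial DNA factor Tfam fell by 0.32, 0.24 and 0.25, and in all 2 of 18 regulators rose and 3 fell there, the second that rose being Rxra at 0.25 ± 0.08, named after its values were seen. The monocarboxylate transporter Slc16a6, which exports ketone bodies, rose in liver by 0.99 ± 0.19 (adjusted p = 0.00160) and in spleen by 0.74 ± 0.09 (adjusted p = 3.84e-05). Each was the only call of its ketone list, of 7 and 6 genes tested, and in marrow 0 of 6 were called. Of the fuel switch list the HIF target Pdk1 rose in marrow by 0.56 ± 0.10 (adjusted p = 0.0122). In spleen the phosphatase Pdp2, which works against the kinases, fell by 0.43 (adjusted p = 0.00277) and Ucp3 rose by 0.32 ± 0.09, and in liver 0 of 9 were called.

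Whether a response differed between tissues was tested as an interaction in 1 limma fit of all 39 arrays, with each gene's brightest probe set over both tissues. Between liver and spleen 9 of 27 genes differed, where 9.74% of all genes did. Lpin1 and Plin5 changed more in liver, by 1.22 ± 0.27 and 1.07 ± 0.25, and Pex11a and Pdk4 more in spleen, with liver minus spleen at -1.47 ± 0.15 and -1.37 ± 0.40. The difference was also negative for Acot2 (-0.48 ± 0.13), Plin2 (-0.42 ± 0.14), Hadha (-0.37 ± 0.10), Acadl (-0.37 ± 0.10) and Acads (-0.35 ± 0.09). Adjusted p ran from 6.54e-09 for Pex11a to 0.0407 for Plin2. Between liver and marrow 2 of 26 differed against 2.74% of all genes: Plin5 by 1.34 ± 0.32 and Acot2 by -0.59 ± 0.17, with adjusted p of 0.0107 and 0.0408. Between spleen and marrow only Pex11a of 26 differed, by 1.30 ± 0.20 (adjusted p = 0.000189), against 0.289% of all genes, and Pdk4 at 1.34 ± 0.52 was not called (adjusted p = 0.424). The fit shares 1 spread over tissues, and the 2 tissues of a pair may come from the same mice, which was not modelled.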

How the data were processed

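The authors deposited 1 linear intensity per probe set and array. The submitters' processing notes name RMA and limma with no version or role, and no genome build. Here the intensities were converted to log2 with no offset. Of 45101 probe sets, 64 control probe sets were left out and 932 annotated with several symbols were not named. The 34945 probe sets with 1 symbol gave 18193 genes.

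Each gene was read from its brightest probe set per tissue, genes under the 30th percentile were left out, and limma 3.58.1 (lmFit, eBayes, two-sided) in R 4.3.3 compared hypoxia with vehicle within each tissue. Benjamini-Hochberg adjustment ran over 12735 genes per tissue, with calls at 0.05. The number of arrays limits precision. Figures were drawn with matplotlib 3.10.9, and the fitting code was tested on simulated data.

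Whether replicate numbers pair samples was checked by correlating deviations from group means: liver pairs gave 0.166 to 0.535, all 8 over 0.1, and count as paired, although only 2 of 8 numbers correlated best with their own partner. Marrow and spleen did not meet this. All listed genes are named; values per sample are given for those called in any tissue and for Angptl4, and up to 4 called genes per further list and tissue are named, plus Plin3, Acad10 and Rxra, named after their values were seen. The genes and lists were chosen with earlier results of these data known. Alternatives covered the dim filter (none or the 50th percentile), probe set choice, normalization, variance model, array sets, replicate block and left-out samples.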

Additional observations from a re-analysis of the deposited data

Results flagged for a closer look

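A single sample stood apart by Dixon's criterion in 9 of 152 groups, a rate that chance gives in about 1 in 20. The groups were those of 4 or more samples for every gene tested in a tissue and for the dim probe set of Angptl4, so the vehicle group of bone marrow was not checked. In liver, hypoxia replicate 4 was at 10.97 for Ppara, while the other hypoxia livers lay between 10.22 and 10.57, and at 10.45 for Pex11a, while the others lay between 9.64 and 9.93. Vehicle replicate 3 in liver was at 5.19 for Acot4, with the others from 6.00 to 6.56, and at 14.73 for Fabp1, with the others from 14.78 to 14.82.

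In spleen, vehicle replicate 4 was at 10.98 for Fabp4, while the other vehicle spleens lay between 6.28 and 8.41, and vehicle replicate 6 was at 10.33 for Acadl, while the others lay between 10.40 and 10.47. In bone marrow, hypoxia replicate 4 was at 10.85 for Acadl against 10.72 to 10.74 in the others. Hypoxia replicate 2 was at 8.40 for Acads against 8.45, and hypoxia replicate 3 at 5.99 for Fgf21 against 5.95. The other hypoxia samples had identical values for Acads, and likewise for Fgf21, so any deviation at all would be flagged there.

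The response differed between liver and spleen in the interaction test for Pex11a (-1.47), Lpin1 (1.22), Plin5 (1.07), Acads (-0.35), Acadl (-0.37), Acot2 (-0.48), Hadha (-0.37), Pdk4 (-1.37) and Plin2 (-0.42), each as the log2 change in liver minus that in spleen. Between liver and bone marrow it differed for Plin5 (1.34) and Acot2 (-0.59), and between spleen and bone marrow for Pex11a (1.30).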

How the results depend on the processing

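Of the liver genes, 10 were called, where 11.1% of all genes were. With the replicate block 18 were called, where 18.7% of all genes were. With arrays centred on the median the count was 6, against 8.23% of all genes. Within replicates 1 to 4 it was 3, against 6.13%. With all 39 arrays in 1 fit 18 were called, and with the array set as a term 16. Leaving out single samples gave 7 to 14. The share of all genes is not given here for these last settings, nor for the marrow and spleen alternatives below. Marrow gave 2, but 4 with the dim filter at the 50th percentile, 4 with the mean of probe sets (1 of them shared with the main result), 4 with the replicate block, although its numbers do not pair the samples, and 0 in the fit of 39 arrays; left-out samples gave 0 to 4. Spleen gave 6, but 3 within replicates 1 to 4, and 6 with the replicate block; left-out samples gave 6 to 7. Leaving out 3 spleens chosen after seeing the data gave 5. Angptl4 in liver on its bright probe set turned to -0.10 within replicates 5 to 8 and to -0.0057 without hypoxia replicate 4, both uncalled; leaving out single liver samples gave -0.0057 to 0.13. The liver minus spleen count was 9 to 11, and the other tissue differences kept counts of 2 and 1. The difference of Acot2 between liver and marrow was not called with the mean of probe sets, at -0.35. Plin5 and Lpin1 in liver and Pdk4 and Pex11a in spleen stayed called under every alternative run for them. The causes of these shifts were not tested. Dim probe sets, among them that of Angptl4, limit what can be said of low levels.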
